A study of Gallus gallus with 21 samples.

Results

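The mitochondrial chromosome of the chicken is a small circular genome that encodes core subunits of the respiratory chain together with the RNAs that translate them. The complexes of the respiratory chain pass electrons to oxygen and drive the synthesis of ATP, on which neurons depend heavily. Both strands are transcribed into long precursors that are cut into single RNAs, so the transcripts of this genome share their synthesis but not their processing or decay. Described here are all rows of the deposited mRNA table placed on the mitochondrial chromosome (MT). They are 30 of 14558 rows, chosen by chromosome alone and not by their values. They were followed in 18 libraries of the cerebrum of female Tibetan chickens, each from 1 bird.

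The groups were embryos at day 12 (E12, 3 libraries), day 16 (E16, 3 libraries) and day 20 (E20, 2 libraries) of incubation, birds of 100 days (D100, 3 libraries) and adult hens of 1 year (Y1, 3 libraries), 3 years (Y3, 2 libraries) and 5 years (Y5, 2 libraries). No treatment or allele separated them. The embryos came from incubated eggs, the D100 birds from a farm in Ya'an and the adult hens from Lhasa, so age and place of rearing change together and their effects cannot be told apart. The D300 stage was not analysed here. The values are log2(FPKM+1), where FPKM is a count of fragments corrected for transcript length and library size. The files hold no counts, so the number of reads behind a single value is unknown, although the paper lists the reads of each library. In RNA of whole tissue, fewer mitochondria or cells and less RNA per cell cannot be told apart.

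The rows carry Ensembl identifiers of the Gallus_gallus-5.0 annotation with no gene name, position, length or biotype. None of them could be matched to the RefSeq annotation. That annotation (assembly GRCg7b) lists 37 mitochondrial genes in chicken. They are 13 protein-coding genes, 2 ribosomal RNA genes and 22 transfer RNA genes. The protein-coding genes are 7 subunits of complex I (ND genes), 3 subunits of cytochrome c oxidase (COX genes), 2 subunits of ATP synthase and cytochrome b. Protein-coding and ribosomal RNA genes together number fewer than 30. If each row is a different gene of this list, at most 13 rows are protein-coding and at most 2 are ribosomal RNAs, and all others are transfer RNAs. For such rows, mRNA is only the name of the deposited table. Which of the 37 genes each of the 30 rows measures is not annotated, so the rows are given by identifier. No sequence is shown for the same reason, and the brain cell markers and the nuclear genes of the respiratory chain could not be looked up. Rows on this genome lie close together, and copies of mitochondrial sequence occur in nuclear chromosomes. How reads shared between them were assigned is not given in the sources used here, which leaves the level of a single row uncertain.

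In total, 26 of the 30 rows had a value above 0 in every library. ENSGALG00000036229 and ENSGALG00000037369 were listed at 0 in 1 library each, ENSGALG00000032059 in 2 and ENSGALG00000039249 in 3. Of the 30, 7 lay in the top 1% of all mRNAs by mean level, 15 in the top 10%, and 10 were below the median mRNA, whose mean log2(FPKM+1) was 3.48. Ordered by their mean over the 18 libraries, the rows divided at the largest gap between neighbours into 15 abundant and 15 scarce rows. The lowest of the abundant rows, ENSGALG00000036229, averaged 6.28 ± 2.54 (SD over 18 libraries), and the highest of the scarce rows, ENSGALG00000038243, averaged 4.57 ± 2.40. The gap between them was 1.70. In 13 of the 18 libraries every abundant row was above every scarce row.

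The place of this division was a matter of how the levels were averaged. With the median over libraries the largest gap left 7 rows above it, and with the log2 of the mean FPKM it left 29. It stayed at 15 when any 1 library was left out. In FPKM the abundant rows held between 96.7% and 99.3% of the summed FPKM of all 30 rows in each library. That sum was therefore almost wholly a measure of the abundant rows.

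**Figure D1:**
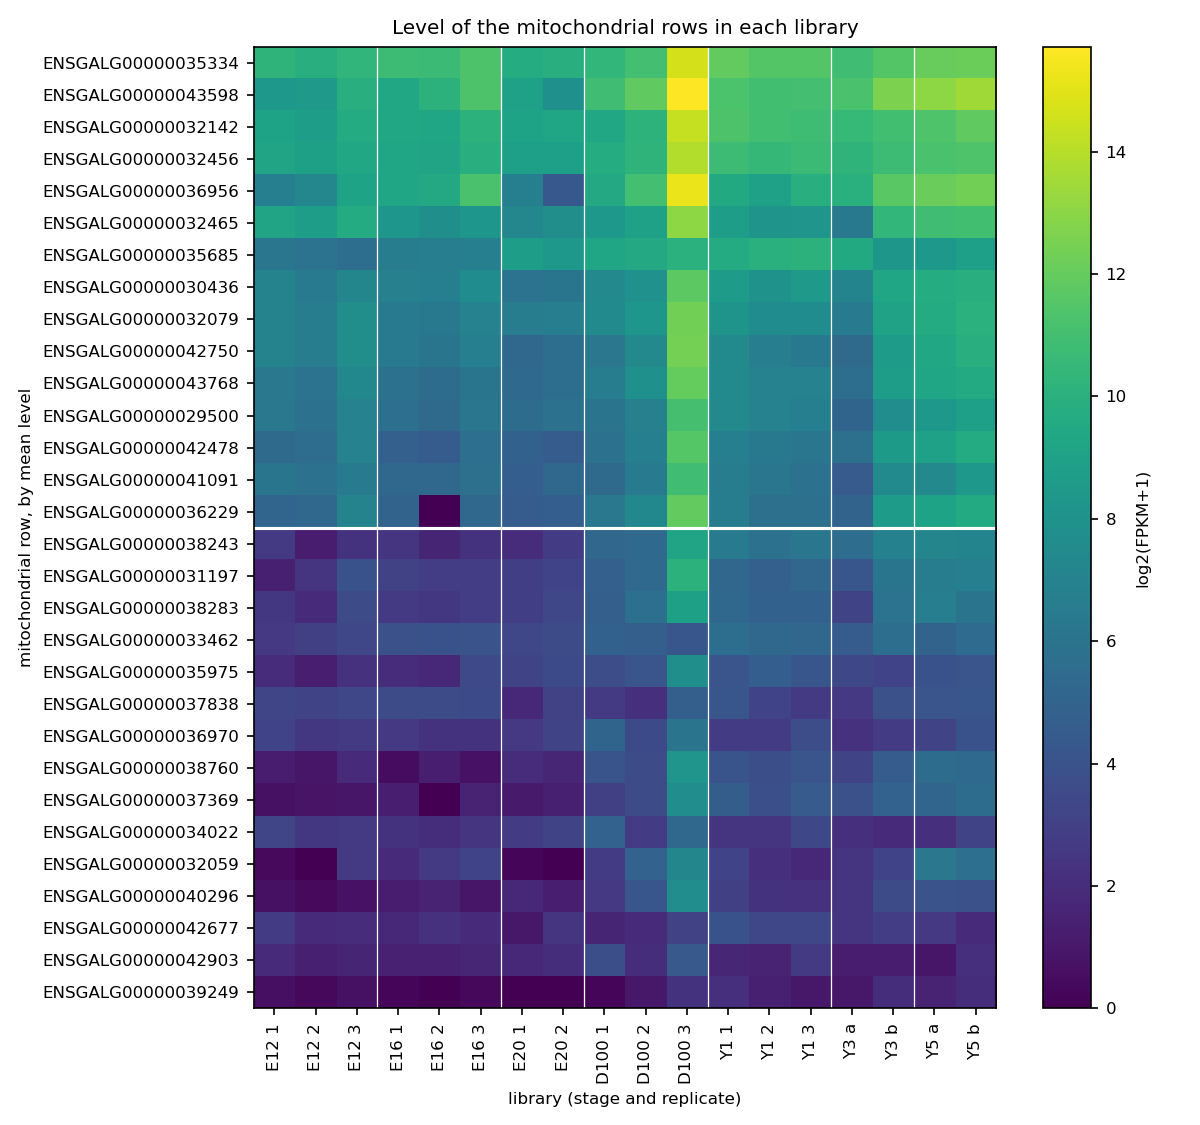
Level of each of the 30 mitochondrial rows (down the page, by mean level) in each of the 18 libraries (across, by stage and replicate), as log2(FPKM+1). The thick white line divides the 15 abundant from the 15 scarce rows, and D100 replicate 3 stands out as a bright column in both groups.

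ENSGALG00000035334 was the most abundant row by mean log2(FPKM+1), with 11.14 ± 1.18 (SD over 18 libraries) and a lowest value of 9.70 in E20 replicate 1. ENSGALG00000043598 followed with 10.91 ± 1.99. Next came ENSGALG00000032142 with 10.36 ± 1.37, ENSGALG00000032456 with 10.15 ± 1.24 and ENSGALG00000036956 with 9.69 ± 2.49. The sixth, ENSGALG00000032465, averaged 8.95 ± 1.58. Each pair of neighbours in this order differed by less than the SD of either row. That SD includes the differences between stages and D100 replicate 3. Neighbours were measured in the same libraries, so it does not show whether their order holds from library to library.

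At the other end, ENSGALG00000034022 averaged 2.89 ± 0.92, ENSGALG00000032059 2.80 with a range between 0 and 7.18, ENSGALG00000040296 2.47 ± 1.77, ENSGALG00000042677 2.39 ± 0.73, ENSGALG00000042903 1.94 ± 0.88 and ENSGALG00000039249 0.94 ± 0.80. All 6 were below the median mRNA, although they lie on the same genome as the most abundant rows.

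Summed over the 30 rows, the mitochondrial share of all mRNA FPKM was lowest in the embryos and, D100 replicate 3 apart, highest in the oldest hens. It was 0.644%, 0.535% and 1.08% in the E12 libraries, 0.783%, 0.807% and 1.66% at E16, and 0.427% and 0.463% at E20. At D100 it was 1.07%, 1.96% and 28.8%. It was 2.56%, 1.75% and 1.58% at Y1, 1.52% and 4.10% at Y3, and 4.35% and 5.62% at Y5. The Y3 birds stood apart from each other, with 1 at the level of Y1 and 1 near the level of Y5. Adult hens averaged 3.07% ± 1.63 (SD, n = 7) and embryos 0.799% ± 0.407 (SD, n = 8). The lowest adult, Y3 replicate a with 1.52%, was below the highest embryo, E16 replicate 3 with 1.66%, so the periods overlapped. A single mRNA of another chromosome held between 18.6% and 40.6% of all FPKM. With that mRNA left out, the mitochondrial share was at least 2.18% in adult hens and lay between 0.712% and 2.30% in embryos, so the periods still overlapped. The E20 embryos, at 0.718% and 0.712%, were then next to E12 replicate 2 at 0.727%, and Y1 replicate 3 was at 2.55%. A sum over these rows was given no test.

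**Figure D2:**
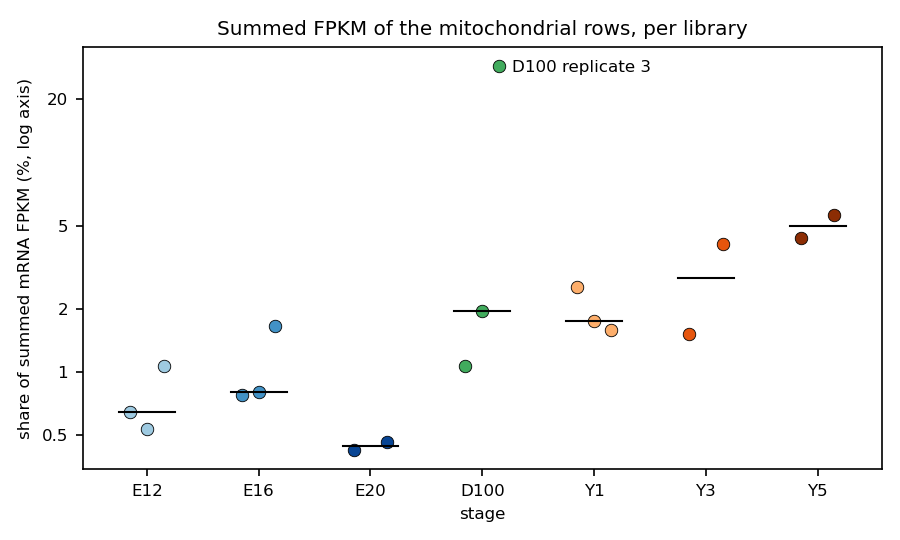
Summed FPKM of the 30 mitochondrial rows as a percentage of the summed FPKM of all mRNAs (vertical axis, log scale) by stage. Each point is 1 library and each line is the median of the stage. The E20 libraries lie lowest, at 0.427% and 0.463%, and D100 replicate 3 lies highest, at 28.8%.

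D100 replicate 3 differed from every other library in these rows. Their summed FPKM there was 198100, against 7339 and 13060 in the other D100 libraries, which is 19.4-fold over the mean of those. It was also 5.41-fold over the next highest library, Y5 replicate b. Of the 30 rows, 29 were higher in D100 replicate 3 than in both other D100 libraries, and 27 had their highest level of all 18 libraries there, while 2.80% of all mRNAs had theirs in this library. The median difference on the log2(FPKM+1) scale from the mean of the other D100 libraries was 4.16 over the 30 rows. It was 4.59 over the abundant and 3.37 over the scarce rows. Over all mRNAs the median difference was -0.34.

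The rows farthest above the other D100 libraries were ENSGALG00000042750, with 12.43 in D100 replicate 3 against 6.26 and 7.37 in the others, ENSGALG00000042478, with 11.56 against 5.94 and 6.81, and ENSGALG00000036229, with 11.93 against 6.27 and 7.32. They are all abundant rows. A total of 104 mRNAs were at least 2 higher on the log2 scale in D100 replicate 3, and 23 of these were mitochondrial rows. At 3 or more there were 43, of which 22 were mitochondrial.

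The rows that were lowest relative to the other D100 libraries were as follows. ENSGALG00000033462 was at 4.18 in D100 replicate 3, against 4.86 and 4.77 in the other D100 libraries, and was thus the single row below them. ENSGALG00000035685 was at 10.06, against 9.21 and 9.51, a difference of 0.70 from their mean. ENSGALG00000042677 was at 3.06, against 1.65 and 1.90. The last pair was thus above both other libraries. Their differences from the mean of those libraries were smaller than those of the remaining rows. These 3 rows were also the ones that did not have their highest level in D100 replicate 3. Each of them was highest in a Y1 library.

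**Figure D3:**
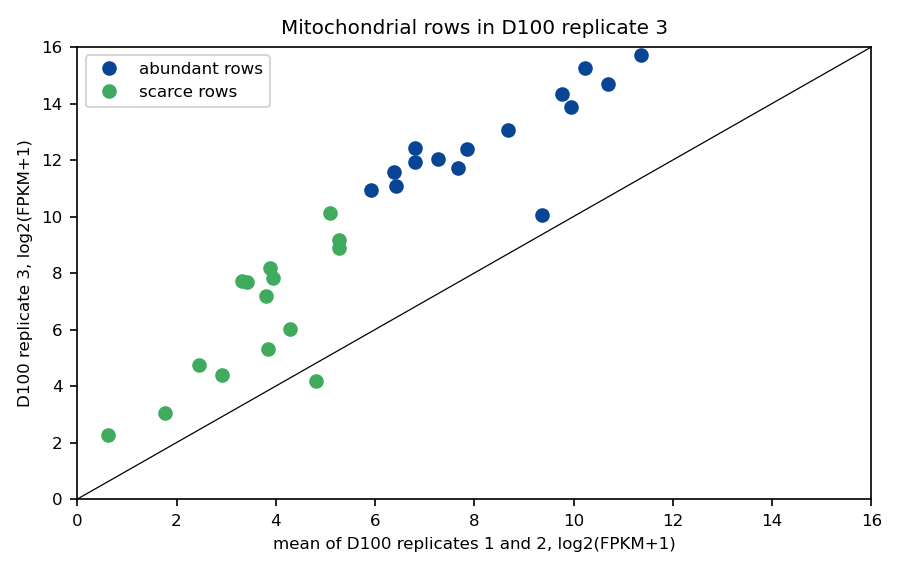
Level of the 30 mitochondrial rows in D100 replicate 3 (vertical axis) against the mean of D100 replicates 1 and 2 (horizontal axis), both as log2(FPKM+1), with the line of equal levels. Blue points are the 15 abundant and green points the 15 scarce rows. ENSGALG00000033462 is the only point under the line.

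The rest of this library moved as well. Of all mRNAs, 71.6% were lower in D100 replicate 3 than in the mean of the other D100 libraries. Its median log2(FPKM+1) of 3.16 was the lowest, and its 318 mRNAs listed at 0 the most, of the 18 libraries. Y1 replicate 3 with 304 and D100 replicate 1 with 281 were close in the latter. FPKM is relative to the whole library, so the values of other mRNAs depend on the mitochondrial total. A size factor was set by the median ratio over mRNAs outside the mitochondrial chromosome that were above 0 in every library. It was 0.759 for this library and between 0.964 and 1.07 for the other 17. Within the mitochondrial RNA, ENSGALG00000043598 was the largest row here as in the other D100 libraries, with 27.0% of the summed mitochondrial FPKM in D100 replicate 3 against 25.5% and 28.6%. ENSGALG00000036956 held 20.0% there, against 9.57% and 15.6%, and ENSGALG00000035685 held 0.539%, against 8.04% and 5.57%. The paper lists more clean reads for this library than for the other D100 libraries, and the highest share of high-quality bases of all 21 libraries. The part of these differences, of the lower median level and of the mRNAs listed at 0 in the mitochondrial values was not tested. The comparisons were made with and without this library because it is extreme in these same rows. Counts of calls without it are therefore not independent of that choice.

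Between adult hens and embryos, mitochondrial rows were mostly higher in the hens. The median difference, adult hens minus embryos, was 1.80 on the log2(FPKM+1) scale over the 30 rows, 28 of which were positive, and -0.03 over all mRNAs. With limma and Bonferroni adjustment over all mRNAs, a call needed a difference of at least 1 and an adjusted p of at most 0.05. By this rule 3 rows rose and 0 fell, where 5.98% of all mRNAs were called in either direction and 3.54% rose. With Benjamini-Hochberg adjustment 21 rows passed, 11 abundant and 10 scarce, all upward, where 7.09% of all mRNAs did. Differences were the same without D100 replicate 3, since that library belongs to neither group, but the estimate of the spread between birds was smaller. Then 12 rows rose by Bonferroni adjustment, 6 abundant and 6 scarce, where 3.82% of all mRNAs did, and 24 passed upward by Benjamini-Hochberg adjustment, where 7.14% did. A fit of adult hens and embryos alone called 11, where 6.59% of all mRNAs were called in either direction. All 11 were among those 12. Leaving out D100 replicate 1 instead, 4 rows rose by Bonferroni adjustment, and 3 did without D100 replicate 2. The shares of all mRNAs called in either direction were then 6.18% and 5.99%.

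ENSGALG00000038243 had the largest rise. Its log2(FPKM+1) ranged between 5.61 and 7.17 with a median of 6.52 in the 7 adult hens, and between 1.20 and 2.80 with a median of 2.29 in the 8 embryos. In FPKM these hens lay between 47.9 and 143 and these embryos were at no more than 5.97. The groups did not overlap. The difference was 4.34 with a standard error of 0.49 (limma, Bonferroni-adjusted p = 0.0025). D100 replicates 1 and 2, at 5.16 and 5.38, were already above every embryo. In a fit of the numbered libraries only, which drops the hens of Y3 and Y5 and was chosen after seeing the data, this row differed by 4.02 and was not called.

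ENSGALG00000033462 ranged between 4.58 and 5.68 in adult hens, with a median of 5.25, and between 2.63 and 4.01 in embryos, with a median of 3.52. Here too every hen was above every embryo. The difference was 1.76 with a standard error of 0.18 (limma, Bonferroni-adjusted p = 0.00069). This scarce row was the least variable of the called ones, and it was the row that was lower in D100 replicate 3 than in its stage mates.

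ENSGALG00000035685, an abundant row, differed by 2.09 with a standard error of 0.19 (limma, Bonferroni-adjusted p = 0.000113). Its levels lay between 8.33 and 10.09 in adult hens, with a median of 9.56, and between 5.69 and 8.76 in embryos, with a median of 6.66. The groups overlapped, because the E20 embryos were at 8.76 and 8.36 while Y3 replicate b was at 8.33 and Y5 replicate a at 8.35. The other 5 hens were above both E20 embryos. Of the abundant rows this one was least like the others in its course over life.

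The rows called only without D100 replicate 3 included the largest rows of the genome. ENSGALG00000043598 lay between 10.98 and 13.45 in adult hens, with a median of 11.27, and between 7.87 and 11.35 in embryos, with a median of 9.19. The difference was 2.87, with a standard error of 0.59 in the fit of all libraries and 0.35 without D100 replicate 3. The Bonferroni-adjusted p (limma) was 1 in the fit of all libraries and 0.0156 without that library. ENSGALG00000032142 lay between 10.55 and 11.90 in adult hens and between 8.72 and 10.10 in embryos, a difference of 1.84 with no overlap. ENSGALG00000032456 lay between 10.22 and 11.37 in adult hens and between 8.84 and 9.86 in embryos, a difference of 1.66 with no overlap. ENSGALG00000035334, the most abundant of all, overlapped, with 10.90 to 12.18 in adult hens and 9.70 to 11.34 in embryos, and differed by 1.38. ENSGALG00000030436 differed by 2.11.

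Among the scarce rows, ENSGALG00000037369 lay between 3.85 and 5.56 in adult hens and between 0 and 1.51 in embryos, with a difference of 3.70. ENSGALG00000038760 lay between 3.21 and 5.56 in adult hens and between 0.53 and 1.99 in embryos, with a difference of 3.09. Both had clear space between the groups, and both were called only without D100 replicate 3, as were ENSGALG00000031197 with a difference of 2.79 and ENSGALG00000040296 with 2.02. In all, 9 of the 30 rows, 2 abundant and 7 scarce, were higher in every hen than in every embryo, where 5.87% of all mRNAs were. No row was higher in every embryo than in every hen, where 5.03% of all mRNAs were. The 30 rows moved together between birds, so such counts are not of independent genes.

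At the other extreme, ENSGALG00000034022 and ENSGALG00000042903 were the only rows with a negative difference. ENSGALG00000034022 lay between 1.95 and 3.40 in adult hens and between 2.09 and 3.25 in embryos. ENSGALG00000042903 lay between 0.95 and 2.67 in adult hens and between 1.37 and 2.07 in embryos. Their differences of -0.19 and -0.10 had standard errors of 0.33 and 0.30 and did not pass the test. In the fit of all 18 libraries, 9 rows were called with neither adjustment, by p or by size. They were these 2, the abundant rows ENSGALG00000032465, ENSGALG00000042750, ENSGALG00000029500 and ENSGALG00000041091, and the scarce rows ENSGALG00000037838, ENSGALG00000036970 and ENSGALG00000042677. The last of these had a Benjamini-Hochberg adjusted p (limma) of 0.0124, but its difference of 0.88 was below 1. Without D100 replicate 3 fewer rows remained uncalled, since 24 passed by Benjamini-Hochberg adjustment.

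**Figure D4:**
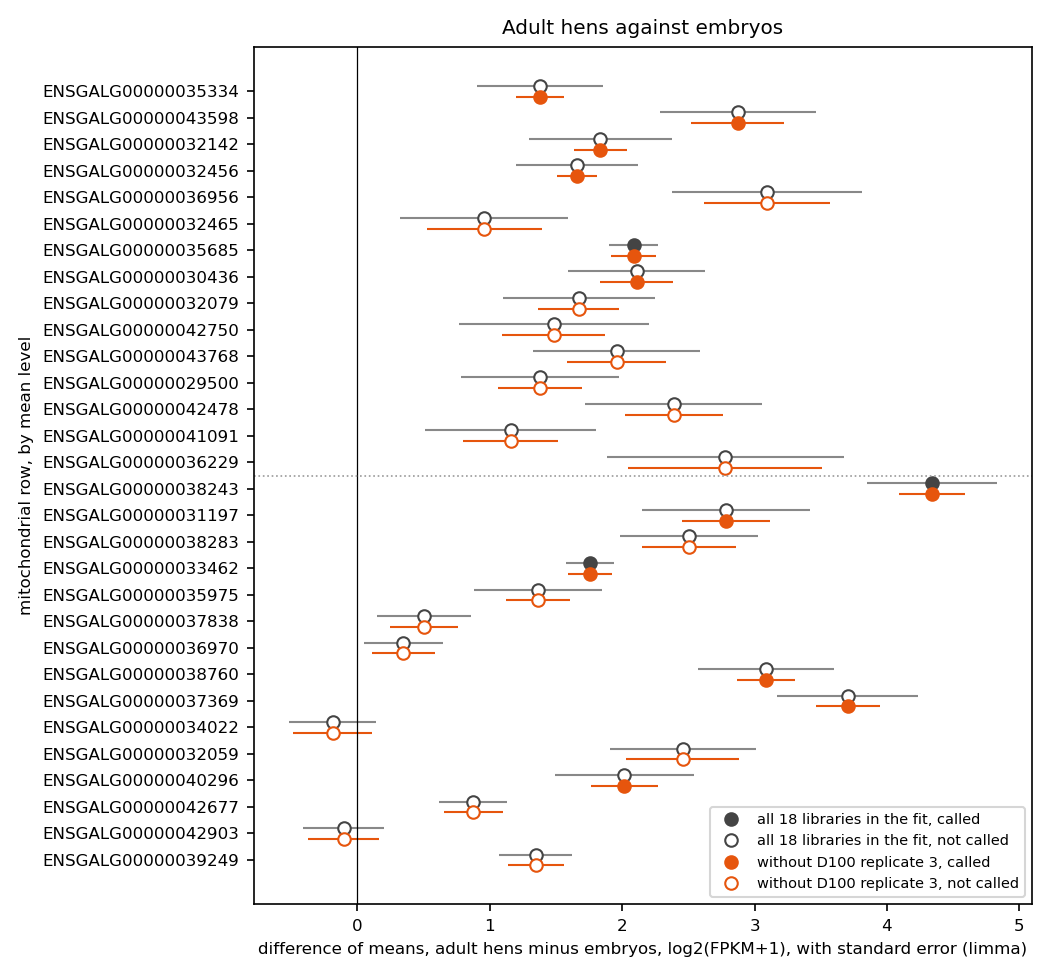
Difference of means, adult hens minus embryos, on the log2(FPKM+1) scale (horizontal axis) for each of the 30 mitochondrial rows, ordered by mean level with the abundant rows above the dotted line. Dark symbols are from the fit of all 18 libraries and orange symbols from the fit without D100 replicate 3. Bars are standard errors (limma) and filled symbols are rows called with Bonferroni adjustment, 3 in the first fit and 12 in the second.

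Adjacent stages were then compared, which share libraries with each other, so their differences are not independent. For E16 vs E12, 0 rows were called by limma with Bonferroni adjustment, where 0.158% of all mRNAs were. With Benjamini-Hochberg adjustment 0 rows were called too, where 2.48% of all mRNAs were. An unadjusted p of at most 0.05 with a difference of at least 1 was found for 0 rows, against 5.58% of all mRNAs. With any 1 library left out this count was at most 3, against 4.4% to 9.47%. The median difference was 0.02 over the rows and 0.01 over all mRNAs. The largest difference, -2.40 with a standard error of 1.39, was that of ENSGALG00000036229. It was at 5.00, 0 and 5.26 at E16 and at 5.14, 5.32 and 7.01 at E12, so it rests on the library in which the row was listed at 0.

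For E20 vs E16, 0 rows were called with Bonferroni adjustment, where 0.611% of all mRNAs were. An unadjusted p of at most 0.05 with a difference of at least 1 was found for 3 rows, against 10.8% of all mRNAs, and for 7 rows without D100 replicate 3, against 10.9%. With Benjamini-Hochberg adjustment 2 rows passed, in opposite directions, against 8.22% of all mRNAs. ENSGALG00000035685 was at 8.76 and 8.36 in the E20 embryos and at 6.60, 6.72 and 6.75 in the E16 embryos. The groups did not overlap, and the difference was 1.87 with a standard error of 0.32 (limma, Benjamini-Hochberg adjusted p = 0.002). ENSGALG00000036956 was at 6.77 and 4.32 at E20 and at 9.29, 9.47 and 11.19 at E16. Both E20 embryos were below all E16 embryos, and the difference was -4.44 with a standard error of 1.24 (limma, Benjamini-Hochberg adjusted p = 0.0289). The median difference was -0.22 over the 30 rows and -0.07 over all mRNAs, and 13 of the rows were positive. When D100 replicate 3 was left out, ENSGALG00000035334 and ENSGALG00000032059 also passed, with differences of -1.16 and -2.44, against 9.15% of all mRNAs.

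For D100 vs E20 the mitochondrial rows had their largest median difference between adjacent stages in the fit of all 18 libraries. All 30 differences were positive, with a median of 2.67 against -0.09 over all mRNAs. By Bonferroni adjustment 0 rows were called, where 0.234% of all mRNAs were, while 28 rows had an unadjusted p of at most 0.05 with a difference of at least 1, against 8.46% of all mRNAs. This last count was 15 without D100 replicate 3, against 9.49%. Leaving out an E20 embryo leaves 1 at that stage, so only the median difference is given. It was 2.53 without E20 replicate 1 and 2.89 without E20 replicate 2. With Benjamini-Hochberg adjustment 11 rows passed upward, against 2.28% of all mRNAs. All 30 differences were still positive without D100 replicate 3, with a median of 1.31 against 0.01 over all mRNAs, and 9 rows passed the Benjamini-Hochberg adjustment upward, against 3.61% of all mRNAs. Of these 9, 8 were among the 11. Without D100 replicate 3 the median of 1.31 was near that for Y5 vs Y3, which was 1.23. In percentage points the mean share then rose more from Y3 to Y5, 2.81% to 4.99%, than from E20 to D100, 0.445% to 1.51%. As a fold it rose more from E20 to D100. The Y3 mean is that of hens at 1.52% and 4.10%, so the order in percentage points depends on which hen is used. Leaving out D100 replicate 1 instead, 1 row, ENSGALG00000032059, was called by Bonferroni adjustment, where 0.165% of all mRNAs were. In 27 rows all 3 D100 birds were above both E20 embryos, where 13% of all mRNAs were.

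ENSGALG00000036956 had the largest difference of these. It was at 9.46, 10.99 and 15.27 in the D100 birds and at 6.77 and 4.32 in the E20 embryos, with no overlap. The difference was 6.36 with a standard error of 1.24 (limma, Benjamini-Hochberg adjusted p = 0.00843), and 4.68 without D100 replicate 3. ENSGALG00000032059 was at 2.71, 4.91 and 7.18 in the D100 birds and at 0.24 and 0 in the E20 embryos. Its difference was 4.81 with a standard error of 0.96, and 3.69 without that library.

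For Y1 vs D100 the direction turned on D100 replicate 3. The median difference was -1.40 over the rows, with 5 of 30 positive, against 0.14 over all mRNAs. Leaving that library out, it was 0.08 over the rows, with 17 positive, against 0.05 over all mRNAs. Scaling the libraries by their median ratio moved the median over all mRNAs to 0.01 and that over the rows to -1.56. The mitochondrial share differed by -8.65 percentage points with D100 replicate 3 and by 0.450 without it. By Bonferroni adjustment 0 rows were called, where 0.172% of all mRNAs were, and 7 rows had an unadjusted p of at most 0.05 with a difference of at least 1, against 7.83% of all mRNAs. That count was 20 without D100 replicate 1, against 6.59%, 11 without D100 replicate 2, against 10.6%, and 5 without D100 replicate 3, against 9.53%. With Benjamini-Hochberg adjustment 1 row passed, against 5.12% of all mRNAs, namely ENSGALG00000036970, with a difference of -1.77. It was at 2.81, 2.78 and 3.69 at Y1 and at 5.03, 3.54 and 6.03 at D100, with overlap. The largest difference was that of ENSGALG00000032059, with -2.57 and a standard error of 0.86. In the fit without D100 replicate 3, other rows passed the Benjamini-Hochberg adjustment, ENSGALG00000032142 with a difference of 1.29 and ENSGALG00000042677 with 1.78, against 6.2% of all mRNAs. Over all libraries ENSGALG00000042677 differed by 1.35, while ENSGALG00000032142 differed by -0.24, so the direction of ENSGALG00000032142 turned on that library.

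Among the hens, 0 rows were called for Y3 vs Y1 by Bonferroni or by Benjamini-Hochberg adjustment, where 0.00687% and 0.0481% of all mRNAs were. None had an unadjusted p of at most 0.05 with a difference of at least 1, against 2.42% of all mRNAs. With any 1 library outside Y3 left out at most 1 row did, against 2.29% to 2.94%. The median difference was -0.09 over the rows and 0.01 over all mRNAs. Its sign turned on which Y3 hen was used. It was 0.68 with 22 rows positive without Y3 replicate a and -0.78 with 2 positive without Y3 replicate b. It was also 0.08 without Y1 replicate 1. The largest was 1.41, with a standard error of 1.24, for ENSGALG00000036956, which was at 10.00 and 11.72 at Y3 and at 9.53, 8.98 and 9.83 at Y1. The Y3 hens differed from each other by more than this. In 27 of the 30 rows Y3 replicate b was above Y3 replicate a, with a median difference of 1.29, and in 10 rows by 2 or more. Over all mRNAs the median difference between these hens was 0.04. Of the 14528 mRNAs outside the mitochondrial chromosome, 88 were higher by 2 or more. The widest of the abundant rows was ENSGALG00000032465, at 6.32 in Y3 replicate a and 10.38 in Y3 replicate b.

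For Y5 vs Y3, 28 of the 30 differences were positive, with a median of 1.23 against -0.02 over all mRNAs, but 0 rows were called by Bonferroni or Benjamini-Hochberg adjustment, where 0.0481% and 0.728% of all mRNAs were. An unadjusted p of at most 0.05 with a difference of at least 1 was found for 2 rows, against 5.16% of all mRNAs. This count was 13 without D100 replicate 3, against 5.44%, and 6 without D100 replicate 1, against 5.35%. Leaving out any other library outside Y3 and Y5 gave between 1 and 3, against 5.04% to 5.34%. Where an omission leaves 1 hen at a stage, only the median difference is given. It was 0.58 without Y3 replicate a, 1.81 without Y3 replicate b, 1.47 without Y5 replicate a and 1.08 without Y5 replicate b. ENSGALG00000032059 differed most, by 3.22 with a standard error of 1.05. It was at 6.23 and 5.71 at Y5 and at 2.35 and 3.15 at Y3. In 24 rows both Y5 hens were above both Y3 hens, where 24.4% of all mRNAs were, and in 21 rows both Y5 hens were above all 3 Y1 hens, where 23.9% were. With 2 birds a stage, a separation of this kind is frequent among all mRNAs.

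Over all stages, the moderated F test of limma called 2 rows with Bonferroni adjustment, ENSGALG00000035685 (adjusted p = 3.47e-05) and ENSGALG00000033462 (adjusted p = 0.0301), where 4.48% of all mRNAs were called. Leaving out 1 library changed this count. In the absence of D100 replicate 3, 6 rows were called, against 5.17% of all mRNAs. When any of 14 other libraries was left out, only ENSGALG00000035685 was called. With Benjamini-Hochberg adjustment 23 rows passed, against 45.1% of all mRNAs, and 28 without D100 replicate 3, against 48.1%. By stage mean, 20 rows were highest at Y5, 7 at D100 and 3 at Y1. These were 23, 3 and 4 without D100 replicate 3. The lowest stage mean was embryonic in 28 rows, at E20 in 16 of them. E20 and Y5 have 2 libraries each. Such counts were not made over all mRNAs, so whether they are unusual is not known.

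**Figure D5:**
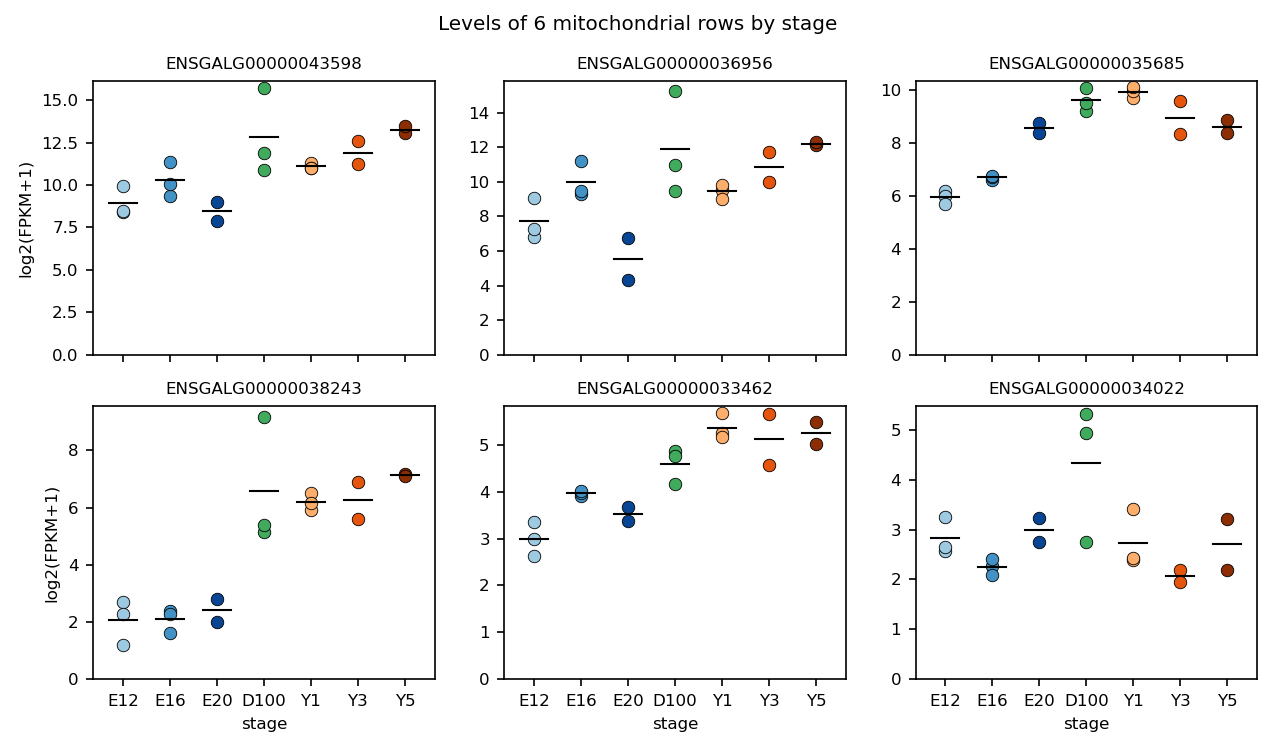
Level of 6 mitochondrial rows as log2(FPKM+1) (vertical axes) at each stage in order of age (horizontal axes), with 1 point per library and a line at the stage mean. ENSGALG00000036956 dips at E20, ENSGALG00000035685 is high from E20 on and peaks at Y1, and ENSGALG00000034022 is high in D100 replicates 1 and 3 but not in replicate 2.

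The mixture within the mitochondrial RNA also varied, and shares within a library do not depend on how libraries are scaled. ENSGALG00000035334 was the largest row in 10 libraries and ENSGALG00000043598 in 8. The largest row was ENSGALG00000035334 at E12, E20 and Y1 in every library and ENSGALG00000043598 at D100, Y3 and Y5 in every library, while E16 was mixed. ENSGALG00000043598 held on average 11.0% of the summed mitochondrial FPKM in the E12 embryos, 19.0% in E16 and 11.0% in E20. It held 27.0% in the D100 birds and 17.3%, 27.1% and 29.6% in the Y1, Y3 and Y5 hens. ENSGALG00000035334 held 25.5%, 29.0%, 25.8%, 15.9%, 25.4%, 17.0% and 13.6% at these stages in the same order. ENSGALG00000036956 held 5.18%, 15.6%, 1.85%, 15.1%, 5.69%, 13.3% and 14.6%. These 3 had the widest ranges of stage means of all rows.

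In the embryos, the log2 ratio of ENSGALG00000043598 over ENSGALG00000035334 was 0.01 in E16 replicate 3 and negative in the other 7, down to -1.95 in E20 replicate 2. It was 0.47, 0.86 and 1.01 in the D100 birds. It was -0.67, -0.50 and -0.47 in the Y1 hens, 0.33 and 1.07 in the Y3 hens, and 0.97 and 1.27 in the Y5 hens. The Y1 hens were thus on the side of the embryos and the D100 birds on that of the older hens. D100 replicate 3, whose mitochondrial total was so much higher, had a ratio within the range of Y3 and Y5. As the ratio was chosen after its values were seen, it was given no test. Ribosomal RNA was depleted before sequencing, and whether these rows include ribosomal RNAs is not known. The part of depletion in these shares and ratios was not tested.

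Most rows varied together across the 18 libraries. As a description, each row was correlated with the mean of the abundant rows, leaving the row itself out where it is one of them. The median Pearson r was 0.94 for the abundant rows and 0.86 for the scarce rows, and 0.88 and 0.81 without D100 replicate 3. The points are libraries that share stage and scaling. Lowest were ENSGALG00000042677 with 0.39, ENSGALG00000035685 and ENSGALG00000034022 with 0.41 each, ENSGALG00000042903 with 0.46 and ENSGALG00000033462 with 0.51. After leaving out D100 replicate 3, the r of ENSGALG00000033462 was 0.77, while that of ENSGALG00000034022 was -0.09 and that of ENSGALG00000042903 was -0.05. The most alike of all pairs of rows were ENSGALG00000032079 and ENSGALG00000043768, with 0.99.

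A group of 3 scarce rows, picked after their values were seen, had a course of its own. ENSGALG00000034022 was at 4.94, 2.75 and 5.31 in D100 replicates 1, 2 and 3, ENSGALG00000042903 at 3.75, 2.08 and 4.39, and ENSGALG00000036970 at 5.03, 3.54 and 6.03. D100 replicates 1 and 3 were thus above every library outside D100 in all 3 rows. D100 replicate 2 was within the range of those libraries, although its mitochondrial share was above that of replicate 1. In ENSGALG00000036970 it was still above every embryo, the highest of which was at 3.20. Outside D100 the highest levels of these rows were 3.40, 2.67 and 3.95.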

How the data were processed

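RNA of the cerebrum was sequenced in 21 libraries at 8 stages, after ribosomal RNA was depleted. By the authors' description and the submitters' processing notes, remaining rRNA reads were removed, HISAT2 mapped the others to Gallus_gallus-5.0, transcripts were assembled with StringTie 1.3.3 and FPKM was computed with Cufflinks 2.2.1. A table of log2 values, log2(FPKM+1), was deposited by the authors for mRNAs above an FPKM of 0.1, with the chromosome of each row. Depletion and filtering bear on mitochondrial rRNA and on rows of low level. The lncRNA table gives no chromosome and was not used.

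The values of 18 libraries at 7 stages were used. A further 3 value columns, whose names give no stage, were left out. The columns of Y3 and Y5 do not match the replicate numbers of the labels and are called replicate a and b. Nothing says more of replicates than that each is 1 bird.

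Stage means of all 14558 mRNAs were fitted with limma 3.58.1 in R 4.3.3, with a variance trend, in a single fit of the 18 libraries. Adult hens vs embryos is the mean of 3 stage means minus the mean of 3 others. Calls required a difference of at least 1 (a fold of 2 on the log2(FPKM+1) scale, which understates the change of weak rows) and an adjusted p of at most 0.05. The fit was also run on simulated data with independent noise for each mRNA and large differences at a single stage. That setting has neither the correlation of the mitochondrial rows nor a library like D100 replicate 3, so it does not test the calls in them. Shares were computed after turning the values back to FPKM. Python 3.11.15, numpy 2.4.6, pandas 2.3.3 and matplotlib 3.10.9 were used for the rest.

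Rows given with values are the 6 highest and 6 lowest by mean, those beside the gap, the largest rise and fall called in each comparison or, with none called, the largest difference, the 3 whose share of the mitochondrial FPKM varied most between stages, the 3 farthest above and below in D100 replicate 3, and the 5 other mRNAs most like the abundant rows. Every other row named with values was chosen after its values were seen. The rows and lists were chosen with earlier results of these data known. A list of nuclear respiratory chain genes and one of brain cell markers could not be used, since 0 identifiers of the table matched a symbol. Alternatives were Benjamini-Hochberg adjustment, another pseudocount (0.1), only mRNAs with a mean FPKM of 1 or more, median-ratio scaling, the compared stages only, a replicate block, and each library left out.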

Additional observations from a re-analysis of the deposited data

Results flagged for a closer look

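A library set apart from its period was looked for in each of the 30 rows and in the mitochondrial share, over the 8 embryos and over the 7 adult hens, by the gap of the highest or lowest library to its neighbour relative to the whole range. Among 62 such groups, 3 had a library set apart, and chance alone marks about 5% of groups. Single stages have too few libraries for this, so D100 replicate 3 could not be examined in this way. ENSGALG00000043768 had a log2(FPKM+1) of 7.33 in E12 replicate 3, where the next embryo was at 6.28 and the lowest at 5.39. ENSGALG00000036229 was listed at 0 in E16 replicate 2, while the other embryos lay between 4.56 and 7.01. ENSGALG00000037838 was at 1.81 in E20 replicate 1, and the other embryos lay between 3.01 and 3.67.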

How the results depend on the processing

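With Benjamini-Hochberg adjustment, 2 rows were called for E20 vs E16, 11 for D100 vs E20, 1 for Y1 vs D100, 21 for adult hens vs embryos and 23 over all stages. The shares of all mRNAs called, in the same order and in either direction, were 8.22%, 5.38%, 5.12%, 12.4% and 45.1%. Without D100 replicate 3 as well these counts, chosen after seeing the data, were 4, 9, 2, 24 and 28. The shares of all mRNAs were then 9.15%, 5.96%, 6.2%, 12.5% and 48.1%. A fit of the compared stages alone called 11 rows for adult hens vs embryos, against 6.59% of all mRNAs. When each library was left out in turn, between 3 and 12 rows were called for adult hens vs embryos and between 1 and 6 over all stages. With both E20 embryos kept, between 0 and 1 were called for D100 vs E20. The highest counts of the first pair came without D100 replicate 3 and that of the third without D100 replicate 1. Of all mRNAs, 3.97% to 6.67%, 2.8% to 5.17% and 0.131% to 0.316% were called in the same order. Median-ratio scaling without D100 replicate 3 gave 12 and 6 rows for adult hens vs embryos and over all stages, and a pseudocount of 0.1 gave 12 and 5, both chosen after seeing the data. Of all mRNAs, 6.62% and 5.26% were called with the scaling, and 6.4% and 4.83% with the pseudocount. The mitochondrial share of Y1 minus D100 was -8.65 percentage points over all libraries and turned to 0.450 without D100 replicate 3, ranging between -13.4 and 0.450 over single omissions. The largest gap in level left 29 rows above it by the log2 of the mean FPKM and 7 by the median. Of 26 pairs of same-numbered libraries, 6 had a correlation of their deviations over 0.1. The median was 0, against 0.009 over the 52 other pairs. Deviations from means of 2 or 3 libraries are tied to each other, so this cannot settle whether the numbers pair the birds. With the replicate number as a block, over the numbered libraries only, 2 rows were called for adult hens vs embryos, against 1.5% of all mRNAs. ENSGALG00000038243 was not among them (difference 3.89). The same libraries without the block, chosen after seeing the data, gave 2 rows for that comparison, again without ENSGALG00000038243 (difference 4.02), and 2 over all stages. Of all mRNAs, 2.39% and 2.65% were called there. The block gave 1 row over all stages, against 1.49% of all mRNAs. It gave 0 for the adjacent stages that could be fitted, against 0.0137% to 0.124%. No block could be fitted for Y3 and Y5. Among the 35 differences called by either adjustment over all 18 libraries, 0 reversed under an alternative. ENSGALG00000032142 for Y1 vs D100, called only without D100 replicate 3, had the opposite sign over all libraries. Without counts, the counting error of single values is unknown, and stages of 2 or 3 birds limit what these comparisons can detect.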

Other observations

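Outside the mitochondrial chromosome, the mRNAs most like the mean course of the 15 abundant rows were looked up over the 18 libraries, as a description without a test. They were ENSGALG00000037065 on chromosome 24, with a Pearson r of 0.93, ENSGALG00000045199 on chromosome 5, with 0.89, and ENSGALG00000045706 on linkage group LGE64, with 0.86. ENSGALG00000037916 and ENSGALG00000034399, both on unplaced scaffolds, followed with 0.85 and 0.84. Without D100 replicate 3 these values were 0.86, 0.92, 0.69, 0.75 and 0.68 in the same order. All 5 were scarce, with mean log2(FPKM+1) between 0.53 and 2.92. In D100 replicate 3, ENSGALG00000037065 was at 4.91 against a mean of 1.34 in the other D100 libraries, and ENSGALG00000045706 was at 3.96 against 1.06.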
